A study of Mus musculus with 20 samples.

Results

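The state of the amygdala and hippocampus immediately after conditioned fear (CF) training, called 0 hr, was set against baseline in 8 of the 20 arrays of the series. The 4 arrays labelled 0 hr were each paired with the baseline array of the same brain region and genotype, which gave 4 pairs: the amygdala of DKO mice, the amygdala of WT mice, the hippocampus of DKO mice and the hippocampus of WT mice. DKO mice lack AC1 and AC8, the adenylyl cyclases encoded by Adcy1 and Adcy8, and WT mice carry both. All mice were males of strain C57BL/6 aged 2 mo. Mice of the 0 hr groups had a training trial of 5 min with white noise and 1 foot shock of 0.7 mA for 2 sec, whereas baseline tissue was taken 5 min before training from mice that received no treatment. RNA of 5 to 10 mice was pooled on an array, and each region, genotype and time point had 1 array, so no pair has a replicate of its own. According to the methods, the WT mice did not come from the litters of the DKO mice, and DKO mice had doxycycline until weaning and could carry a tetop-AC8 or a CaMKII-tTA transgene or neither. Tissue was taken as micropunches, and whether both regions came from the same mice is not stated, so the regions need not be independent.

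AC1 and AC8 make cAMP when intracellular calcium rises, and cAMP acts through protein kinase A and the transcription factor CREB on genes that neurons switch on within minutes of activity. The first of these to respond are the immediate early genes. Some encode transcription factors such as Fos and Egr1, and others encode effectors such as the synaptic protein Arc and the phosphatase Dusp1. The amygdala and hippocampus also lie beside ventricles, which hold the choroid plexus, the epithelium that secretes cerebrospinal fluid and makes transthyretin (Ttr) in large amounts.

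Values are log2 levels after robust multi-array averaging (RMA), so that a difference of 1 is 2-fold. The arrays report 28853 transcript clusters, groups of probes for a gene or part of one, and 21789 of these are paired with 1 symbol and stand for 19938 genes. The median level lay between 6.71 and 6.81 on the 8 arrays, and any 2 of these arrays correlated at 0.986 to 0.997 across transcript clusters. Adcy8, disrupted in DKO mice, had levels of 5.37 to 5.89 on the 4 DKO arrays and 7.15 to 7.48 on the 4 WT arrays, with no overlap. A list of hippocampal granule and pyramidal cell markers averaged 7.66 to 7.73 on the 4 amygdala arrays and 8.27 to 8.37 on the 4 hippocampus arrays, and a list of amygdala markers 8.05 to 8.24 in the amygdala and 7.60 to 7.78 in the hippocampus. Replicated comparisons were made with limma, with Benjamini-Hochberg adjustment across every transcript cluster and a limit of 0.05 on the adjusted p. Its standard errors pool the residuals of all pairs in a fit and are moderated by those of other transcript clusters. They are therefore not the spread of the pairs named beside them. Single pairs have no test, and there a gene was counted at 1.5-fold.

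Sequences from RefSeq (GRCm38.p6) are shown for 2 effectors, chosen for their larger changes among those that lay above baseline in all 4 pairs and hold a cAMP response element, and for the microRNA gene with the largest mean change. The first 2 are promoter stretches of 108 bases, in which capitals mark that element, TGACGTCA, a palindrome that CREB binds. Dusp1 lies on the minus strand, the stretch covers chr17:26508558-26508665, and the element ends 136 bases before the transcription start. Btg2, an antiproliferative factor, also lies on the minus strand, the stretch covers chr1:134079264-134079371, and the element ends 159 bases before the start.
Dusp1: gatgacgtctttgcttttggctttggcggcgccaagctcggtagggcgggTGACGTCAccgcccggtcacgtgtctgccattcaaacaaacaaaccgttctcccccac
Btg2: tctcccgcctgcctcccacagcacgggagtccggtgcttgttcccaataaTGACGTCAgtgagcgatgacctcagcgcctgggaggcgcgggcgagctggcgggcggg
The next 2 are microRNA hairpins that carry the same mature sequence, shown in capitals, although only Mir181b-2 stood above baseline in all 4 pairs. Mir181b-2 lies at chr2:38853830-38853918 on the plus strand and Mir181b-1 at chr1:137966639-137966718 on the plus strand.
Mir181b-2: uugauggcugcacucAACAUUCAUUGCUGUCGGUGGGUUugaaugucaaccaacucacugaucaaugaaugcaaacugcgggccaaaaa
Mir181b-1: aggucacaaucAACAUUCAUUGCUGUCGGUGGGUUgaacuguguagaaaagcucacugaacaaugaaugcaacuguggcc
The mature microRNA of both is written once more with its seed, bases 2 to 8, in capitals.
mmu-miR-181b-5p: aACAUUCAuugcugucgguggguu

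Few genes moved by 1.5-fold at 0 hr, and with each pair's own baseline array more of them did so in the amygdala (102 in DKO mice and 130 in WT mice) than in the hippocampus (25 and 32). With the DKO and WT baseline arrays of a region averaged, these counts were 45 and 36 in the amygdala and 33 and 15 in the hippocampus, so the gap depends on the baseline arrays. In the amygdala of DKO mice 55 genes were higher (0.276% of the 19938) and 47 lower (0.236%), and in the amygdala of WT mice 50 were higher (0.251%) and 80 lower (0.401%). The hippocampus of DKO mice had 14 higher (0.0702%) and 11 lower (0.0552%), and that of WT mice 29 higher (0.145%) and 3 lower (0.015%). The split between directions in the WT pairs depended on how the arrays were scaled. Higher genes made up 38.5% of those past 1.5-fold in the amygdala of WT mice, but 22.5% after a further quantile normalization and 18.2% after each array was centred on its median. In the hippocampus of WT mice they made up 90.6%, against 63.6% and 57.9% after these steps, and there the median change of all transcript clusters was 0.07 as deposited, while it was 0.02, 0.01 and −0.01 in the other pairs (amygdala DKO, amygdala WT and hippocampus DKO).

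**Figure D1:**
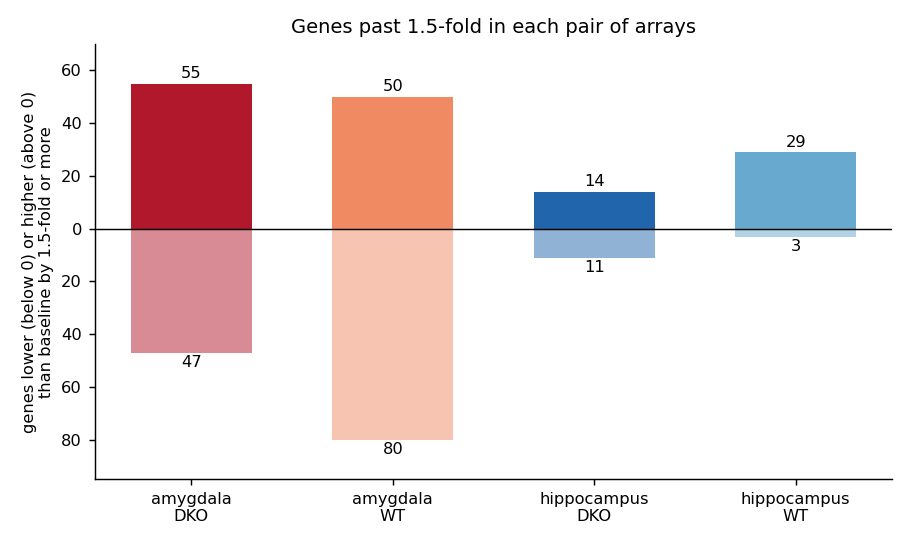
Number of genes at 0 hr that differed from baseline by 1.5-fold or more in each pair of arrays, with higher genes above the line and lower genes below it. The amygdala bars (55 and 47 in DKO mice, 50 and 80 in WT mice) are longer than the hippocampus bars (14 and 11 in DKO mice, 29 and 3 in WT mice).

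Most genes that passed 1.5-fold in the same direction in several pairs did so in the amygdala. In the amygdala, 18 genes were lower by 1.5-fold in both genotypes (0.0903% of all genes), and 3 were higher in both, namely Efcab3, Mir181b-2 and Snord14e. The 18 were Drc7, Npr3 and the 16 genes that limma called lower in the amygdala, described below. In the hippocampus no gene passed 1.5-fold in a shared direction in DKO and WT mice. With only 14 and 29 genes higher there and 11 and 3 lower, of 19938, this absence says little about the pairs. Mir181b-2 and Snord14e were also the only genes higher by 1.5-fold in 3 pairs as deposited. In the hippocampus of WT mice Mir181b-2 changed by 0.54 after a further quantile normalization and 0.52 after median centring, short of 1.5-fold. Hamp, Nts, Olfr43 and Vwc2l passed it upward in one pair and downward in another.

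Genes of the choroid plexus fell in the amygdala at 0 hr in both genotypes. With the genotypes as replicates, limma called 19 transcript clusters lower than baseline in the amygdala (0.0659% of all) and none higher. From the 4 amygdala arrays alone it called 21, of which 3 were higher, namely Snord14e (0.94, adjusted p = 0.00503) and both transcript clusters shared by Snord14d, Snord14c and Hspa8, and the same 3 were higher among 20 calls where only transcript clusters above the median level were tested. At an unadjusted p under 0.05 there were 1044 (3.62%). The calls stand for 16 genes (0.0802% of all genes) and 3 transcript clusters with no symbol, and 12 of the 16 belong to a list of choroid plexus genes, 26 of whose members are on the array. That list was drawn up with these changes known, so its count describes the calls and is no independent evidence. Without the amygdala DKO pair there were 325 calls and without the amygdala WT pair 298, since the lone pair is then assumed to vary like the hippocampus pairs.

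Ttr, which carries thyroid hormone and, with a partner protein, retinol, changed most. Its level was 10.14 at 0 hr and 13.04 at baseline in the amygdala of DKO mice, and 11.17 and 13.23 in that of WT mice. The hippocampus had 13.33 at 0 hr and 13.34 at baseline in DKO mice, and 12.94 and 13.05 in WT mice. Only the amygdala arrays of 0 hr stood low, and both lay below every other of the 8 arrays. The log2 change in the amygdala was −2.48 (moderated standard error 0.161, n = 2 pairs, adjusted p = 1.84e-05 by limma), and it did not pass with a variance trend and robust fitting. The pairs themselves changed by −2.90 in DKO mice and −2.06 in WT mice, a spread that this standard error does not measure. Ecrg4, the precursor of the secreted peptide augurin, had 6.89 at 0 hr and 9.25 at baseline in the amygdala of DKO mice, and 7.12 and 9.14 in that of WT mice. Its hippocampal levels were 9.46 and 9.79 in DKO mice, and 8.67 and 9.16 in WT mice. It too was low on the 2 amygdala arrays of 0 hr alone, with a change of −2.19 there (standard error 0.121, n = 2 pairs, adjusted p = 4.93e-06 by limma).

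The other calls had smaller changes. Among channels and their subunits, Clic6, a chloride channel protein, changed by −1.48, Kcne2, an accessory subunit of potassium channels, by −1.17, Kcnj13, an inward rectifier potassium channel, by −1.08, and Trpm3, a cation channel, by −0.86. Among secreted and surface proteins, Kl, the anti-ageing protein Klotho, changed by −1.34, the coagulation factor F5 by −1.04, Sulf1, which trims heparan sulfate, by −0.92, the BMP antagonist Sostdc1 by −0.80 and the lipopolysaccharide binding protein Lbp by −0.73. Otx2, the homeobox factor that choroid plexus cells need, changed by −1.13, and Cldn2, a claudin of their tight junctions, by −0.87. Calml4, a calmodulin-like protein, changed by −1.58, the cytochrome c oxidase subunit Cox8b by −1.43 and the vesicle fusion protein Vamp8 by −0.83. All 16 genes were lower in both genotypes, and their adjusted p by limma ran up to 0.0442, the value of Lbp. After a further quantile normalization Calml4, F5, Lbp, Sostdc1, Trpm3 and Vamp8 did not pass, and Lbp did not after median centring or from the amygdala arrays alone. Sulf1, Trpm3, Cox8b and Vamp8 are not in the choroid plexus list. The remaining calls, 10428619, 10423049 and 10423030, have no symbol and changed by −1.68, −1.65 and −1.13.

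**Figure D2:**
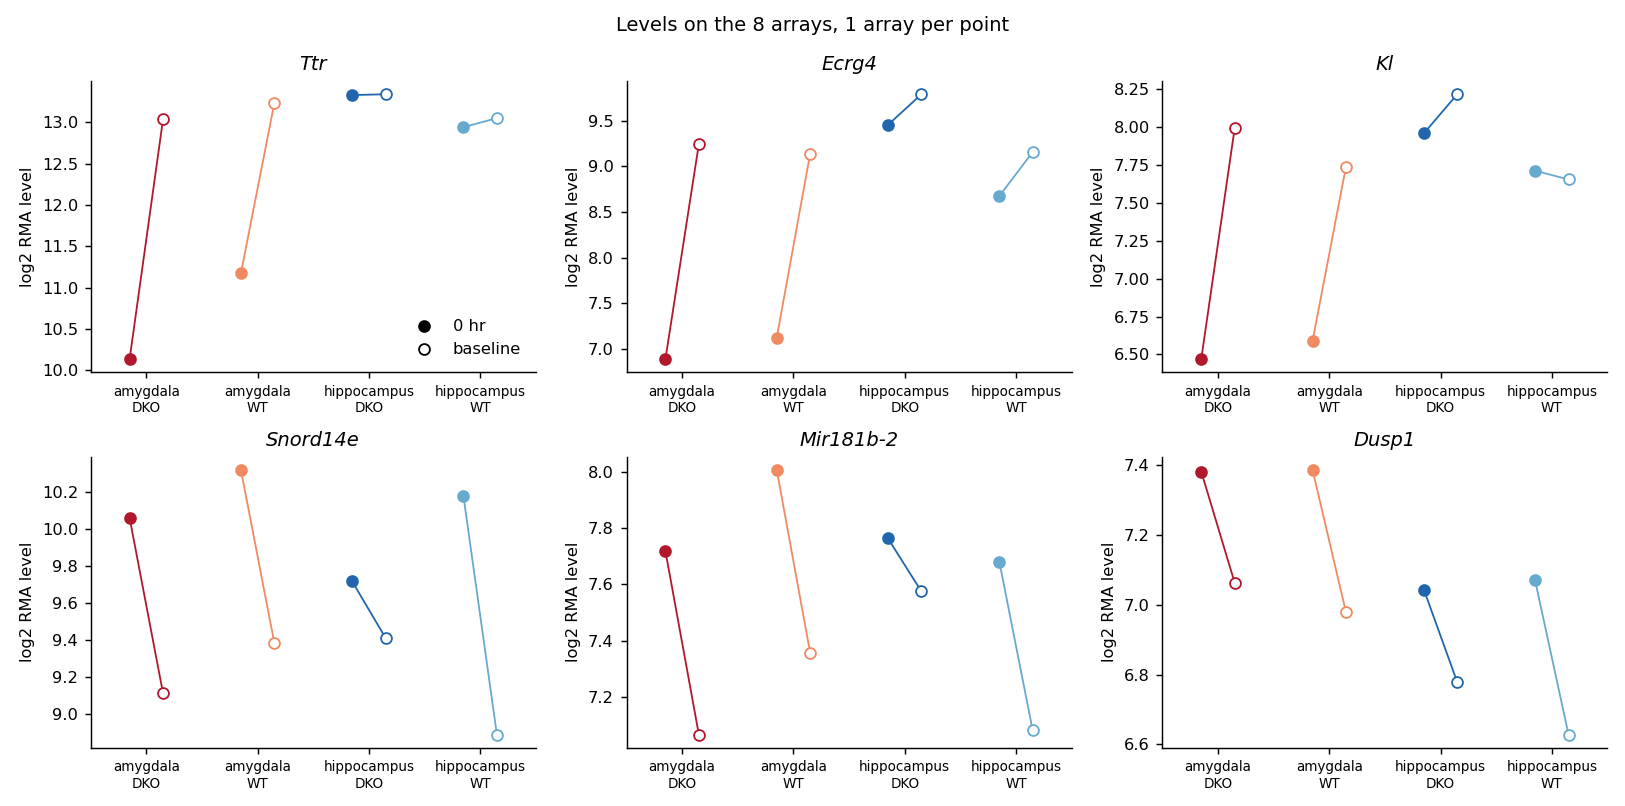
Log2 RMA levels of 6 genes on the 8 arrays, with 0 hr as filled and baseline as open points, joined within a pair; each panel has its own scale. Ttr, Ecrg4 and Kl were low on the amygdala arrays of 0 hr, while Snord14e, Mir181b-2 and Dusp1 stood above baseline in all 4 pairs.

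Over the whole choroid plexus list the change was graded between members. The median log2 change was −0.59 in the amygdala of DKO mice and −0.76 in that of WT mice, where the median of all genes was 0.03 and 0.02. All 26 members lay below baseline in DKO mice and 24 in WT mice, and 13 and 16 did so by 1.5-fold. Smaller changes included those of the transcription factor Msx1 (−0.08 in DKO mice and 0.12 in WT mice), the retinoid transporter Abca4 (−0.29 and −0.06), the sodium bicarbonate cotransporter Slc4a5 (−0.28 and −0.23) and the water channel Aqp1 (−0.52 and 0.21). In the hippocampus the list had medians of −0.21 in DKO mice and −0.10 in WT mice, where those of all genes were −0.01 and 0.08. No member reached 1.5-fold there, and 24 and 15 members lay below baseline. The 2 and 11 members above it compare with 45.5% and 73.0% of all genes. Below baseline in all 4 pairs were 14 of the 26 members, or 53.8%, against 3.05% of all genes.

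In the hippocampus limma called no transcript cluster, and 604 (2.09%) had an unadjusted p under 0.05. From the 4 hippocampus arrays alone it called 41, with 31 higher, among them Snord14e, Carhsp1 and Amigo2, and 10 lower, among them Lum and Trdn. With so few arrays, the moderated standard errors of these calls were nearly alike, from 0.1123 for 10598837 to 0.1188 for Trdn. The calls therefore nearly follow the size of the change and do not measure the spread between the 2 genotypes. With both regions in the fit, the spread of the amygdala pairs enters the test of the hippocampus.

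**Figure D3:**
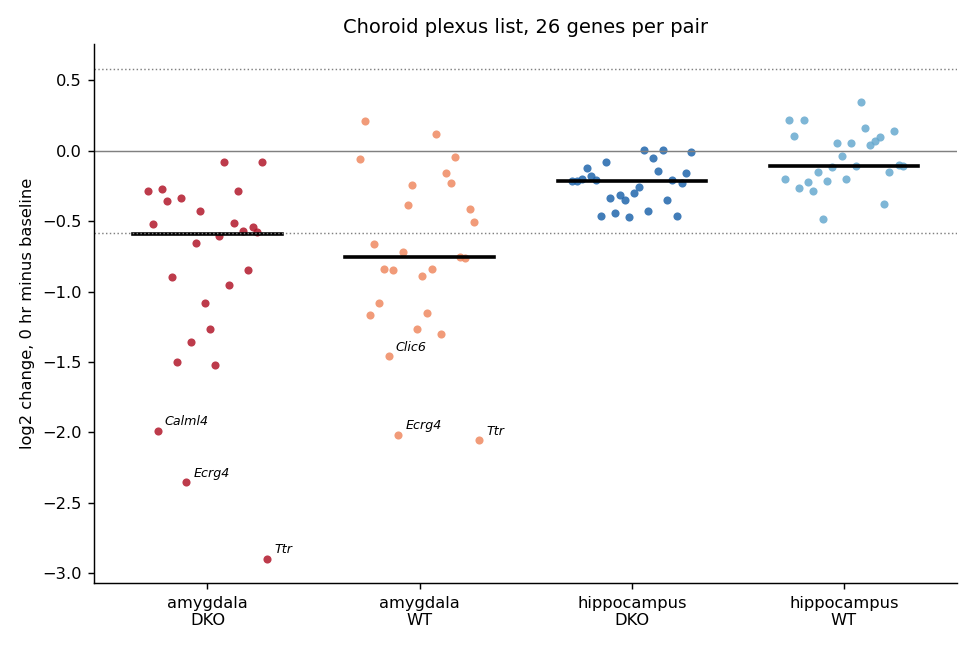
Log2 change (0 hr minus baseline) of 26 choroid plexus genes in each pair, 1 point per gene in alphabetical order, with the median as a black bar and 1.5-fold as dotted lines. The amygdala medians are −0.59 in DKO mice and −0.76 in WT mice, against −0.21 and −0.10 in the hippocampus.

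The difference between the regions was tested itself, as the change in the amygdala minus that in the hippocampus. It was past the limit for 9 transcript clusters (0.0312%), all of them negative, and 636 (2.2%) had an unadjusted p under 0.05. The 6 genes (0.0301%) were Ttr with −2.42, Ecrg4 with −1.78, Cox8b with −1.30, Kl with −1.24, Otx2 with −1.18 and Clic6 with −1.11, with adjusted p-values by limma of 0.00189 to 0.0452 (n = 2 pairs per region). None of the 9 passed after a further quantile normalization, and 4 did after median centring. Without the hippocampus DKO pair 2 remained past the limit and without the hippocampus WT pair 2 of the 9 did, which in both cases were Ttr and Ecrg4, while 162 and 85 passed without the amygdala DKO or WT pair. One call did not follow the choroid plexus. The transcript cluster 10457927, with no symbol, stood at 6.12 at 0 hr and 7.01 at baseline in the amygdala of DKO mice and at 5.94 and 6.44 in that of WT mice. In the hippocampus it stood at 7.23 and 6.54 in DKO mice and at 6.67 and 6.04 in WT mice, so that the regions went opposite ways.

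Levels of the choroid plexus list also varied between arrays of other times. Its mean level was 6.65 on both amygdala arrays of 0 hr (DKO and WT), against 7.52 and 7.40 on their baseline arrays, and 7.42 and 7.27 on the hippocampus arrays of 0 hr, against 7.66 and 7.33. At 1 hr it was 7.42 in the amygdala of DKO mice and 6.54 in that of WT mice, and 6.58 in the hippocampus of DKO mice and 7.47 in that of WT mice. At 1 wk both amygdala arrays were high, at 7.48 in DKO and 7.56 in WT mice, and both hippocampus arrays low, at 6.56 and 6.69. Over all 20 arrays the mean thus spanned 6.54 to 7.56 in the amygdala and 6.56 to 7.66 in the hippocampus. Ttr went with it, at 10.25 in the hippocampus of DKO mice and 13.39 in that of WT mice at 1 hr. The part of the choroid plexus held in a micropunch in the changes at 0 hr was not tested. In such bulk tissue fewer cells of a type and less RNA per cell cannot be told apart. Another list held 25 measured markers of motile cilia and ependymal cells, which line the ventricles. Its medians were 0.08 and −0.05 in the amygdala of DKO and WT mice. There 14 and 10 of the 25 lay above baseline, where 56.3% and 53.8% of all genes did. In the hippocampus the medians were 0.11 in DKO mice and −0.04 in WT mice. There 20 and 10 of the 25 lay above baseline, where 45.5% and 73.0% of all genes did. None of the 25 passed 1.5-fold in any pair. Drc7, a cilia gene outside the list, was lower by 1.5-fold in both amygdala pairs. For 24 markers of meninges, fibroblasts and mural cells, the amygdala medians were −0.12 in DKO mice and 0.00 in WT mice. Above baseline there were 4 and 12 of the 24, where 56.3% and 53.8% of all genes were. Slc13a4, a sulfate transporter, was the only member past 1.5-fold there, with −0.59 in WT mice and −0.51 in DKO mice.

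**Figure D4:**
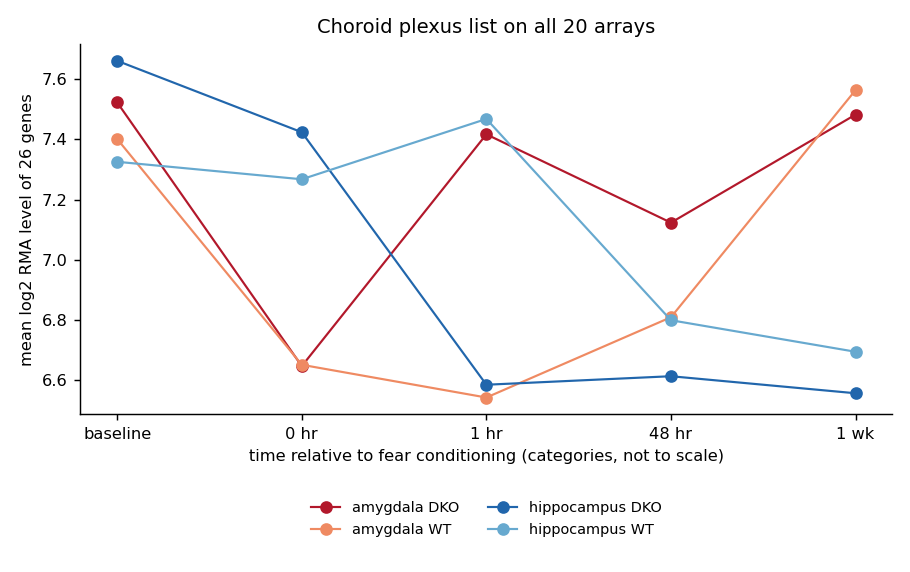
Mean log2 RMA level of 26 choroid plexus genes on each of the 20 arrays by time point, 1 point per array, with lines joining the arrays of 1 region and genotype. Both amygdala arrays of 0 hr lie at 6.65, and arrays of other times lie as low as 6.54.

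Immediate early genes lay mostly above baseline at 0 hr, by small amounts, and none passed the test. Over the 4 pairs limma called no transcript cluster, while 1332 (4.62%) had an unadjusted p under 0.05. Of 27 immediate early transcription factors, 10 lay above baseline in all 4 pairs, or 37.0%, against 8.52% of all genes, and none below in all 4. Of 29 activity-induced effectors, 9 did so, or 31.0%, and again none lay below in all 4. After a further quantile normalization these shares were 33.3% and 27.6%, against 6.19% of all genes, and after median centring 29.6% and 20.7%, against 4.88%. Both lists were written with earlier results of these data known, so these shares describe their members and are no independent evidence. The medians of the transcription factors were 0.11 in the amygdala of DKO mice, 0.21 in that of WT mice, 0.04 in the hippocampus of DKO mice and 0.21 in that of WT mice, beside 0.03, 0.02, −0.01 and 0.08 for all genes. Those of the effectors were 0.14, 0.13, 0.07 and 0.16 in the same order. Above baseline were 22, 21, 16 and 24 of the transcription factors and 21, 22, 21 and 25 of the effectors, where 56.3%, 53.8%, 45.5% and 73.0% of all genes were. Egr3 was an exception among the transcription factors, with −0.09 and −0.04 in the amygdala and −0.13 and 0.04 in the hippocampus of DKO and WT mice, and after either rescaling it lay below baseline in all 4 pairs.

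Levels of these genes were also above baseline at most other times, in comparisons that share the baseline arrays with 0 hr. Over the times 0 hr, 1 hr, 48 hr and 1 wk, the mean level of the transcription factors was 7.01, 7.12, 6.77 and 6.94 in the amygdala of DKO mice, where baseline was 6.89, and 6.91, 7.03, 6.79 and 6.85 in the hippocampus of DKO mice, where it was 6.89. In WT mice it was 7.02, 7.06, 6.99 and 7.01 in the amygdala, where baseline was 6.85, and 7.06, 6.98, 6.92 and 6.99 in the hippocampus, where it was 6.83. All times thus lay above baseline in WT mice, where a rise at 0 hr and a low baseline array cannot be told apart.

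Among the transcription factors, Fos, a subunit of AP-1, had 6.72 at 0 hr and 6.50 at baseline in the amygdala of DKO mice, and 6.77 and 6.13 in that of WT mice. In the hippocampus Fos had 6.53 and 6.36 in DKO mice, and 6.76 and 6.63 in WT mice. It was above baseline in every pair and past 1.5-fold in the amygdala of WT mice alone (log2 change 0.64). Egr2, a zinc finger factor, had 7.32 and 7.14 in the amygdala of DKO mice, and 7.74 and 7.23 in that of WT mice. Hippocampal levels of Egr2 were 6.58 and 6.57 in DKO mice, and 7.14 and 6.46 in WT mice. Both WT pairs of Egr2 thus moved more than the DKO pairs, but the difference between genotypes, −0.50, did not pass (standard error 0.143, adjusted p = 0.503 by limma, n = 2 pairs per genotype). Junb, a partner of Fos, changed by 0.01 and 0.25 in the amygdala and by 0.17 and 0.65 in the hippocampus of DKO and WT mice. Fosb changed by 0.14 to 0.40, Egr1 by 0.06 to 0.33, Egr4 by 0.06 to 0.18 and Ier2 by 0.05 to 0.32, all above baseline in 4 pairs. Nr4a1, a nuclear receptor, changed by 0.04 and 0.30 in the amygdala and by −0.07 and 0.35 in the hippocampus of DKO and WT mice, and Npas4, which neuronal calcium induces, by 0.37 and 0.34 and by 0.13 and −0.03.

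The WT change exceeded the DKO change in both regions for 13 of the 27 transcription factors (48.1%) and 8 of the 29 effectors (27.6%), where 34.7% of all genes did so. No transcript cluster passed the test of the difference between genotypes in the change, DKO minus WT, and 2327 (8.07%) had an unadjusted p under 0.05. The effect of the missing cyclases cannot be told apart from the separate origin, the transgenes or the doxycycline of the DKO mice.

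**Figure D5:**
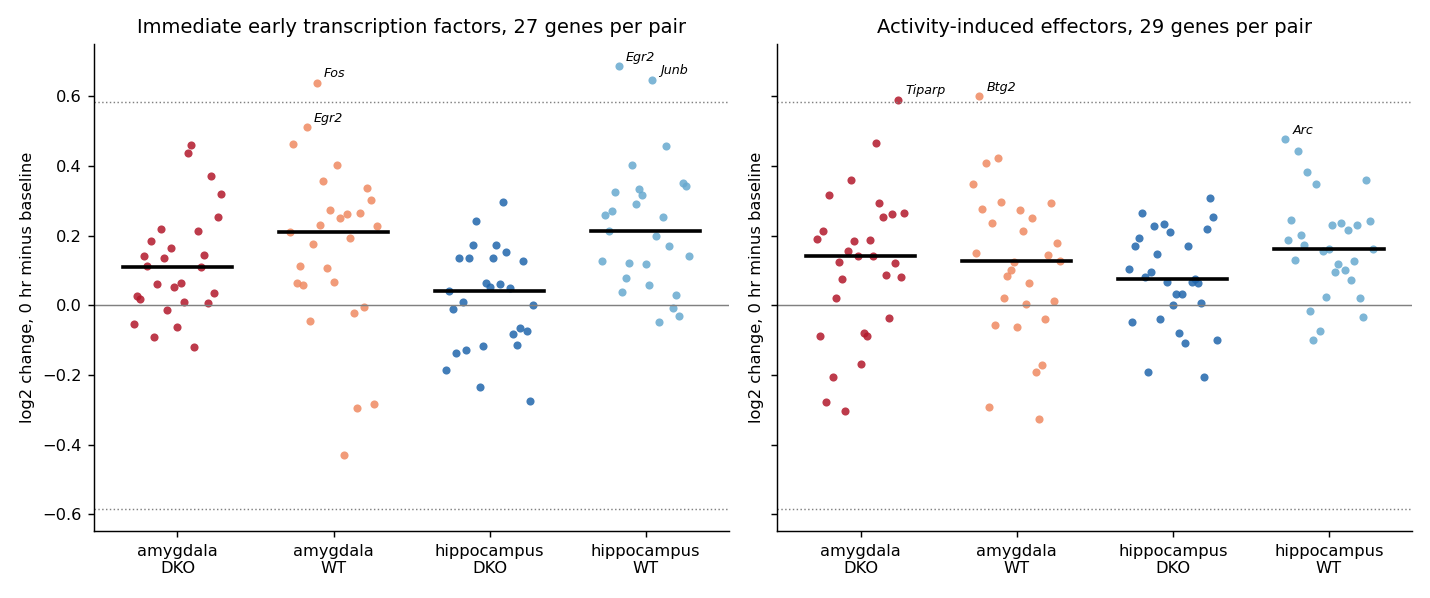
Log2 change (0 hr minus baseline) of 27 immediate early transcription factors (left) and 29 activity-induced effectors (right) in each pair, 1 point per gene in alphabetical order, with the median as a black bar and 1.5-fold as dotted lines. Medians lie between 0.04 and 0.21, and 5 values pass 1.5-fold.

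Dusp1, which dephosphorylates MAP kinases, had the largest mean change of the 29 effectors. Its level was 7.38 at 0 hr and 7.06 at baseline in the amygdala of DKO mice, and 7.39 and 6.98 in that of WT mice. In the hippocampus it was 7.04 and 6.78 in DKO mice, and 7.07 and 6.63 in WT mice. All 4 pairs lay above baseline by similar amounts, although the arrays of 0 hr as a group overlapped those of baseline, since the regions differ in level. The mean change was 0.36 ± 0.08 (SD, n = 4 pairs), with an adjusted p of 0.571 by limma. With 4 pairs, an exact sign test of a single gene cannot go below a two-sided p of 0.125. Btg2 changed by 0.21 and 0.60 in the amygdala and by 0.17 and 0.25 in the hippocampus of DKO and WT mice, Arc by 0.19 and 0.35 and by 0.11 and 0.48, and Ptgs2, the inducible cyclooxygenase, by 0.47 and 0.25 and by 0.17 and 0.10. Tiparp, an ADP-ribosyltransferase, passed 1.5-fold in the amygdala of DKO mice (0.59) and changed by 0.01 in that of WT mice, where it was below baseline after median centring. Homer1, a scaffold of glutamate receptors, and the neurotrophin Bdnf changed by at most 0.35 in any pair.

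The full cAMP response element TGACGTCA, searched on both strands, was found within the 300 bases from 250 before to 50 after the start of 549 of 27025 RefSeq genes (2.03%). It was in 4 of the 20 effectors that have an entry, namely Dusp1, Btg2, Plk2 and Ppp1r15a, in 1 of 20 transcription factors, Maff, and in 0 of 22 choroid plexus genes. Its first 5 bases, TGACG, on either strand, were in 23.0% of all promoters, in 15 of the 20 transcription factors, 13 of the 20 effectors and 6 of the 22 choroid plexus genes, and every full element also holds this shorter one. Genes with the full element did not move alike: Plk2, a kinase of synapses, changed by 0.00 to 0.19, Ppp1r15a, a phosphatase subunit, by −0.11 to 0.24, and Maff, a basic leucine zipper factor, by −0.11 to 0.26.

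None of the 32 members of the cAMP pathway measured passed 1.5-fold in any pair, where no pair had more than 0.401% of all genes past it in 1 direction. The list medians were 0.10, −0.08, −0.02 and 0.07 in the order amygdala DKO, amygdala WT, hippocampus DKO, hippocampus WT, and the last was −0.01 after median centring. Adcy1 changed by 0.11 in the amygdala and 0.28 in the hippocampus of WT mice, and Adcy8 by −0.11 and 0.22. Of 15 genes that glucocorticoids induce, 6 lay above baseline in all 4 pairs, or 40.0%, against 8.52% of all genes, among them the kinase Sgk1 (0.04 to 0.28), the metallothionein Mt2 (0.14 to 0.33) and Nfkbia, the inhibitor of NF-kappaB (0.09 to 0.41). Fkbp5 was not among them (−0.14 to 0.25). The glucocorticoid list too was written with earlier results of these data known, so its share is no independent evidence.

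Among genes above the median level that stood above baseline in all 4 pairs, small RNAs had the largest mean changes. Snord14e, a small nucleolar RNA, comes from an intron of the chaperone gene Hspa8. Its level was 10.06 at 0 hr and 9.11 at baseline in the amygdala of DKO mice, and 10.32 and 9.39 in that of WT mice. The hippocampus had 9.72 and 9.41 in DKO mice, and 10.18 and 8.89 in WT mice. The 4 arrays of 0 hr all lay above the 4 of baseline, as did those of 207 genes (1.04%), and the hippocampus of DKO mice moved least. The mean change was 0.87 (standard error 0.124, n = 4 pairs), with an adjusted p of 0.457 by limma. It passed where all 20 arrays entered the fit (adjusted p = 0.0334) and without the hippocampus DKO pair (adjusted p = 0.00429, change 1.06), and it was the only call of the 20-array fit.

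Snord14e did not move alone. Both transcript clusters shared by Snord14d, Snord14c and Hspa8, which cannot be assigned to one of them, had mean changes of 0.89 and 0.91. The 3 transcript clusters of Hspa8 alone had 0.04, 0.01 and 0.07, so the transcript clusters of the host gene alone stayed near baseline. Snord14e was above its baseline array at the other times too, with 9.40 to 10.42 in the amygdala of DKO mice, 9.47 to 10.53 in that of WT mice, 9.89 to 10.45 in the hippocampus of DKO mice and 9.68 to 10.28 in that of WT mice. All of these share the baseline arrays with the comparison at 0 hr. Of 51 small nucleolar RNA genes on the array, 8 lay above baseline in all 4 pairs, or 15.7%, against 8.52% of all genes.

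The cluster of Mir181b-2, whose hairpin is shown above, had a level of 7.72 at 0 hr and 7.07 at baseline in the amygdala of DKO mice, and of 8.01 and 7.36 in that of WT mice. In the hippocampus it had 7.76 and 7.57 in DKO mice, and 7.68 and 7.08 in WT mice. Again no array of 0 hr overlapped baseline, and the hippocampus of DKO mice moved least. The mean change was 0.52 (standard error 0.088, n = 4 pairs, adjusted p = 0.474 by limma). Mir181b-1, with the same mature sequence, changed by 0.16, −0.67, 0.54 and 0.08 (amygdala DKO, amygdala WT, hippocampus DKO, hippocampus WT). Mir181a-2, the neighbour of Mir181b-2, changed by −0.24 to −0.08. The probes of these clusters report the hairpin or its precursor, not the mature microRNA. Of 300 microRNA genes, 17 lay above baseline in all 4 pairs, or 5.67%, against 8.52% of all genes.

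Other genes above baseline in all 4 pairs, with their mean log2 change and no call, were the circadian repressor Ciart (0.46), Sema3a, a secreted axon guidance protein (0.35), Egr2 (0.35), the adhesion protein Amigo2 (0.33), Tiparp (0.32), the keratin-associated Krtap4-1 (0.31) and Lypd1, a membrane-anchored modulator of nicotinic receptors (0.31). Sema3a was the steadiest of them, at 0.37 in both genotypes in the amygdala and 0.19 and 0.49 in the hippocampus of DKO and WT mice. Ciart was higher mainly in DKO mice, by 0.89 in the amygdala and 0.62 in the hippocampus, against 0.06 and 0.27 in WT mice, and that difference of 0.60 did not pass (adjusted p = 0.475 by limma, n = 2 pairs per genotype). Below baseline in all 4 pairs by the largest mean changes were Ecrg4, Ttr, Clic6, Kcne2, Cox8b, Kcnj13, Sostdc1, Sulf1, Trpm3 and Steap2. Steap2, a metalloreductase, was the only one with its largest change in the hippocampus, where it was −0.80 in DKO mice and −0.05 in WT mice.

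Several neuropeptide and marker genes had changes of opposite direction in different pairs. Neurotensin (Nts) had 9.36 at 0 hr and 8.76 at baseline in the amygdala of DKO mice, and 9.19 and 9.39 in that of WT mice. In the hippocampus it had 6.57 and 7.65 in DKO mice, and 7.57 and 6.63 in WT mice. The hippocampus pairs thus changed by −1.07 in DKO mice and 0.94 in WT mice, and the amygdala by 0.59 and −0.20. Vwc2l, a secreted protein with a von Willebrand C domain, moved in the same directions there, with −0.64 in DKO mice and 1.09 in WT mice in the hippocampus. Also lower in the hippocampus of DKO mice were Grp, the gastrin-releasing peptide (−0.69), and 1 of the 2 transcript clusters of the zinc finger gene Tshz2 (−0.69, the other −0.39). Nts and Grp are in the list of amygdala markers, whose median was −0.08 in that pair, with 3 of 30 members lower by 1.5-fold, where 0.0552% of all genes were and their median was −0.01. In the hippocampus of WT mice the median of the list was 0.11, with 2 members higher by 1.5-fold, where 0.145% of all genes were and their median was 0.08. The lower members were Nts, Grp and Ndst4, and the higher ones Nts and Trh. The list was written with earlier results of these data known, so these counts describe the genes named and are no independent evidence. The part of neighbouring tissue in these punches was not tested.

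In the amygdala of WT mice, markers of striatal projection neurons lay mostly below baseline: the median over 27 genes was 0.07 in DKO mice, with 15 genes above baseline, where 56.3% of all genes were, and −0.24 in WT mice, with 5 above, where 53.8% of all genes were. The difference between genotypes was not tested for the list. Other lists had as few genes above baseline in the amygdala of WT mice. Above it were 5 of 27 ribosomal protein genes, 6 of 32 oxidative phosphorylation genes and 4 of 20 myelin genes, with medians of −0.06, −0.08 and −0.17. Past 1.5-fold in WT mice were the dopamine receptor Drd1 (−0.67), the tachykinin Tac1 (−0.66) and Rasd2 (−0.60), and Crh, the corticotropin-releasing hormone, changed by −0.82. The mean level of the striatal list was 7.77 at 0 hr and 7.75 at baseline in DKO mice, and 7.98 and 8.20 in WT mice, so that the WT baseline array was the highest of the 4. Ugt8a, an enzyme of myelin lipids, changed by 0.06 in the amygdala of DKO mice and by −0.86 in that of WT mice.

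Some transcript clusters went opposite ways in DKO and WT mice. Gas5, the host of several small nucleolar RNAs, changed on 1 of its transcript clusters by 0.44 and 0.75 in the amygdala and hippocampus of DKO mice and by −0.73 and −0.10 in those of WT mice, a difference of 1.01 (standard error 0.201, adjusted p = 0.411 by limma, n = 2 pairs per genotype). Over the 4 transcript clusters of Gas5 the mean changes were 0.09 and 0.29 in DKO mice and −0.29 and −0.01 in WT mice. Pgap1, an enzyme that remodels membrane anchors, changed on 1 of its 2 transcript clusters by 0.93 and 0.40 in DKO mice and by −0.58 and −0.07 in WT mice, a difference of 0.99 (standard error 0.208, adjusted p = 0.411), and the mean of both was 0.71 and 0.21 in DKO mice and −0.36 and 0.02 in WT mice. The splicing factor Srsf3 changed on 1 of its 3 transcript clusters by 0.87 in the amygdala of DKO mice and −0.39 in that of WT mice, but by 0.06 in both genotypes in the hippocampus. Rbm12b2, an RNA-binding protein, changed by 0.88 and −0.26 in the amygdala of DKO and WT mice and by 0.41 and 0.42 in the hippocampus.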

How the data were processed

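Mouse Gene 1.0 ST arrays (Affymetrix) measured the RNA of both regions. The authors summarized the probes by RMA in the Affymetrix Expression Console, which corrects background and quantile-normalizes arrays, and deposited the values on a log2 scale. Versions and genome build are not given in the sources used here. All 28853 transcript clusters entered the fits. Changes were tested on the 8 arrays with limma 3.58.1 in R 4.3.3, with a term for each pair, over all pairs (3 residual degrees of freedom) and by region or genotype (2 degrees). Single pairs were counted at 1.5-fold, the limit in the methods. A gene with several transcript clusters counts by their mean. Symbols came from the platform annotation and sequences from RefSeq GRCm38.p6.

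The members and the 27 gene lists were chosen with earlier results of these data known. Genes named are the calls, the 10 largest mean changes in each direction with 1 sign in all 4 pairs and the 5 largest per pair (both above the median level), list members past 1.5-fold in 2 or more pairs, and Adcy1, Adcy8 and the main immediate early genes. Other list members, genes of small counts and transcript clusters near Snord14e and Mir181b-2 were named after their values were seen. The fit was tested on simulated data. Alternatives were other scalings, filters, limits, arrays and the fit without the replicate block. The number of arrays limits the precision. Python 3.11.15 served for counts and plots.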

Additional observations from a re-analysis of the deposited data

Results flagged for a closer look

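In 2 of 60 results checked, 1 of the 4 pairs lay far from the other 3. This share is no higher than the 1 in 20 or so that chance alone gives, so both are listed as values only. The change of Mir181b-2 was 0.188 in the hippocampus of DKO mice, against 0.60 to 0.65 in the other pairs. The median change of 20 astrocyte markers was 0.156 in the hippocampus of WT mice, against −0.01 to 0.01 in the other pairs. In that pair the median of all genes was 0.08, and other lists lay as high, among them interneurons (0.19) and cortex (0.18).

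For 9 transcript clusters the change at 0 hr differed between the regions by limma. The amygdala minus hippocampus difference was −2.42 for Ttr, −1.78 for Ecrg4, −1.30 for Cox8b, −1.24 for Kl, −1.18 for Otx2 and −1.11 for Clic6. For the transcript clusters with no symbol it was −1.38 for 10428619, −1.36 for 10423049 and −1.36 for 10457927. The level of the choroid plexus list moved with all of these but 10457927, and its part in the differences was not tested.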

How the results depend on the processing

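The fit over 4 pairs gave 0 calls also without the replicate block, where the pairing by region and genotype is left out; with all 20 arrays it gave 1, and with 1 pair left out 0 to 3 (3 without the hippocampus DKO pair, all of the Snord14 group, and 1 without the amygdala WT pair, 10598837). Amygdala calls numbered 19 and ran from 13 to 26 under the other settings that kept both amygdala pairs, but reached 325 without the amygdala DKO pair and 298 without the amygdala WT pair (lowest with any pair left out, 21), where the lone pair is assumed to vary like the others. Hippocampus calls numbered 0, but 41 from the 4 hippocampus arrays alone (31 higher and 10 lower, Snord14e among them with 0.80), and 0 to 41 with 1 pair left out (41 without either amygdala pair, 4 without the hippocampus DKO pair). Regional calls went from 9 to 0 after a further quantile normalization, 4 after median centring and 2 to 162 with 1 pair left out (most without the amygdala DKO pair). Genotype calls went from 0 to 5 with a variance trend and robust fitting, all higher in DKO mice and with Rn7sk (0.65) the only one with a symbol, and to 4 to 128 with 1 pair left out (most without the hippocampus WT pair). The cause was not tested.

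Counts past 1.5-fold were 102, 130, 25 and 32 in the amygdala of DKO and WT mice and the hippocampus of DKO and WT mice. In that order, a limit of 1.3-fold gave 765, 886, 279 and 563, a limit of 2-fold 9, 13, 2 and 2, and genes above the median level 56, 61, 9 and 15. With the WT and DKO baseline arrays of a region averaged as the baseline they were 45, 36, 33 and 15, and median centring gave 19 in the hippocampus of WT mice. No call of a named gene changed direction in these fits. In single pairs, 28 of 540 changes of named transcript clusters changed sign after a further quantile normalization and 24 after median centring, none above 0.0916 in size as deposited, as did 17 and 12 of 108 list medians, none above 0.0846. Each call was checked in every alternative fit that held its transcript cluster, so the same call enters several times. The amygdala calls passed the limit again in 156 such checks and not in 11, and the regional calls in 41 and not in 29. These checks include the fits with an amygdala pair left out, where the lone pair is assumed to vary like the others.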
